A study of Mus musculus with 3 samples.

Results

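The shared intronic open regions are stretches of accessible chromatin inside protein-coding genes and outside annotated exons. Each was called in every one of 4 ATAC-seq peak lists from mouse leukaemic B-cell precursors. They were chosen by the peak calls themselves: overlapping peaks of the 4 lists were merged, and a merged region was kept if every list had a peak in it. It also had to lie wholly inside the body of a protein-coding gene, on an autosome other than 12, 13 and 18, and to touch no annotated exon and no start window, which began 2000 bp before a transcription start and ended 200 bp after it. There were 3400 such regions, out of 18177 regions with a peak in every list on the same autosomes and 50965 merged regions in the series. Since the rule used the peak calls, the number of regions, their counts per gene and their heights are descriptions and carry no test.

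ATAC-seq marks accessible DNA by inserting sequencing adapters with a transposase. The cells were pre/pro-B-cell lines, obtained by retroviral transduction of bone marrow with BCR-ABL(p185), a fusion kinase that drives acute lymphoblastic leukaemia. The donor mice carried on both *Cdk6* alleles either the wildtype sequence (*Cdk6*+/+, called WT) or the kinase-inactive K43M mutation (*Cdk6*KM/KM, called K43M), so every line of both genotypes expresses the oncogene and a CDK6 protein. The lists were WT replicate 2, K43M replicate 1, K43M replicate 2, and a list without a sample label of its own, called WT unnumbered, which the series' design text places in the wildtype group. By that text the first wildtype line had been deposited before and was analysed again for this series, so 1 of the WT lists stems from earlier data than the other 3 lists. Each list is 1 library from 1 line. Where 4 values follow each other without labels, they stand in list order, meaning both WT lists (unnumbered, then replicate 2) before both K43M lists (replicate 1, then replicate 2). Age and sex of the donors are not given in the sources used here.

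Introns of genes active in a cell often hold enhancers, short accessible stretches where transcription factors bind and from which they act on a promoter at a distance. In B-cell precursors such elements are known to be occupied by PU.1 and other ETS proteins, RUNX1, the E-box binding proteins E2A and E2-2, EBF1, PAX5 and Ikaros. The pre-B-cell receptor and the interleukin 7 receptor then drive proliferation through kinases, phospholipases and D-type cyclins, and cyclin D3 with CDK6 is a main engine of that division.

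To show what these regions look like, the 201 bases around the summit of the strongest region are given for the 5 gene models with most of them, for *Tspan14*, the most densely filled of the genes with at least 5 regions, for *Ccnd3* and *Cdk6*, the partners in cell division, and for the regions with the largest rise and the largest fall between genotypes. All are read from GRCm38 (mm10) on the plus strand, 5′ to 3′. Regions are named by a gene that contains them and numbered along the chromosome. Capitals mark the letters of ETS (CNGGAAGT), PU.1-type ETS (GNGGAAGT), RUNX (TGTGGTT), E-box (CAGGTG or CAGCTG) and EBF (CCCNNGGGA) motifs on either strand.
Prkce 1 (chr17:86209675-86209875): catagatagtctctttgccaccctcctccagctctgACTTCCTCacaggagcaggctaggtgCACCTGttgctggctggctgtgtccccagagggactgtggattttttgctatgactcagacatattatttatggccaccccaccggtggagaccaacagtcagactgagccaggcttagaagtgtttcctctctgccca
Rere 8 (chr4:150544955-150545155): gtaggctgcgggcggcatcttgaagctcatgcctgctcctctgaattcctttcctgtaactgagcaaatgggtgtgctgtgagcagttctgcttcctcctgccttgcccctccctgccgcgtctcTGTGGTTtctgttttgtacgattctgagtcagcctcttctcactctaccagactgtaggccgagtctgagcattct
Gm20388 10 (chr8:121440515-121440715): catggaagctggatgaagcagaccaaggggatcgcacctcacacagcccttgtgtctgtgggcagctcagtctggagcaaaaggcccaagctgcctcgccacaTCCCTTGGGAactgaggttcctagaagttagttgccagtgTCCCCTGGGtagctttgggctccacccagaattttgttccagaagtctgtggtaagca
Fgfr2 9 (chr7:132480824-132481024): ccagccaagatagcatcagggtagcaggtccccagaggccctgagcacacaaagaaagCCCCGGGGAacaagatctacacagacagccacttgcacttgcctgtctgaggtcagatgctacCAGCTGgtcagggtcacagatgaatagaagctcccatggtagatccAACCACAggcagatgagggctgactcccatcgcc
Gm20696 8 (chr6:99413599-99413799): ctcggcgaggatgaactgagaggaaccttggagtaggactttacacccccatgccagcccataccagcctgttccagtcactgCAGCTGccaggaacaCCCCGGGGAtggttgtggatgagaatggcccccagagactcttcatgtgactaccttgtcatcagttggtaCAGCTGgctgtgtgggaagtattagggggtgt
Tspan14 6 (chr14:40956541-40956741): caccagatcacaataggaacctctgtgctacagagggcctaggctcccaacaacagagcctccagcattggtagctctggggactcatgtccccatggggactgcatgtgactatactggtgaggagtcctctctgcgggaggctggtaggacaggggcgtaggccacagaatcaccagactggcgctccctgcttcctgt
Ccnd3 5 (chr17:47542173-47542373): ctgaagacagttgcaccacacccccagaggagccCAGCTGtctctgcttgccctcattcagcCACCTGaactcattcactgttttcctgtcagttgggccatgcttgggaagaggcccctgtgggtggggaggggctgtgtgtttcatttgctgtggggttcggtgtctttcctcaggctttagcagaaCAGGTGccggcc
Cdk6 3 (chr5:3494441-3494641): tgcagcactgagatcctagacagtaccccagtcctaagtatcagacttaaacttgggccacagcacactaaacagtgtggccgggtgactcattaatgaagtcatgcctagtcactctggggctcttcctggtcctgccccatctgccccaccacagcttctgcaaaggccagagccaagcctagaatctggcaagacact
Slc39a11 2 (chr11:113638837-113639037): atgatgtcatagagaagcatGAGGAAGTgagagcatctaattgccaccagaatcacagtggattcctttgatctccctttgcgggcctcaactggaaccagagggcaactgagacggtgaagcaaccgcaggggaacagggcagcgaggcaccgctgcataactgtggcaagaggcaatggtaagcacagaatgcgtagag
Nsg2 1 (chr11:32020411-32020611): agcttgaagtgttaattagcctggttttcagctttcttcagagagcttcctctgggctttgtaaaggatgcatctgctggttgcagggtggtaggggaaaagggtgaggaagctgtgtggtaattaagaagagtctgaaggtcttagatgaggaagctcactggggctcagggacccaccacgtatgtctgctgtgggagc
Prkce 1 lies in intron 1 of 14, Rere 8 in intron 11 of 22, Tspan14 6 in intron 1 of 8, Ccnd3 5 in intron 1 of 6 and Cdk6 3 in intron 5 of 7. Gm20696 8 also lies inside *Foxp1*, where it is the strongest region. Ccnd3 5 carries 3 E-boxes, Prkce 1 a PU.1-type ETS motif beside an E-box, and Fgfr2 9 a RUNX motif, an E-box and an EBF motif. Tspan14 6, Cdk6 3 and Nsg2 1 carry none of the 5 motifs in these windows.

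Depth is known only through values recovered from the peak lists. The lists hold 33038 to 39038 peaks, and the genome-wide background recovered from them was 48.4 to 65.3 read ends per 10 kb, highest in WT unnumbered and lowest in K43M replicate 2. At the shared intronic regions the median pileup of read ends at the summit was 27, 25, 27 and 22 in list order. The cell type was checked against promoter peaks of marker genes: the 4 lists had peaks at 10, 10, 10 and 8 of 10 B-lineage promoters, and K43M replicate 2 lacked those of *Cd79b* and *Rag1*. Of 6 T-cell markers only *Lck* had promoter peaks, in all 4 lists, of 6 myeloid markers only *Lyz2*, in both WT lists, and of 5 erythroid markers 1, in K43M replicate 1.

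Introns held 12233 of the merged regions on these autosomes, and 27.8% of them had a peak in every list. The same share was 66% of 14603 promoter regions and 30.6% of 12336 intergenic regions. Of the other intronic regions, 4446 had a peak in 1 list, 2687 in 2 lists and 1700 in 3 lists. Strictly WT-only intronic regions, with peaks in both WT lists and in neither K43M list, numbered 609, and strictly K43M-only ones 1222. K43M-only regions were also the more numerous in other classes. WT-only and K43M-only regions numbered 285 and 853 of 14603 promoter regions, and 676 and 922 of 12336 intergenic regions. K43M replicate 1 held the most peaks, 39038, and its part in these counts was not tested. Just outside the rule, intronic regions that missed a peak in exactly 1 list numbered 612, 396, 166 and 526, in the order of the list that lacked it. Each peak was ranked within its list by its −log10 q, and the rank of a region is the lowest percentile it reached in any list that called it. The median rank of these 4 sets was between percentile 11.2 and 19, against 38.1 for the shared intronic regions. A further 425 regions on chromosomes 12, 13 and 18 that met the other criteria were left out.

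The regions were narrow and moderate in height. Their median width was 598 bp, with a middle range of 442 to 798 bp, and their median fold enrichment, the ratio of the summit signal to the local background of the same library, was 7.37, 7.36, 7.73 and 7.04 in list order. Shared promoter regions had a median width of 967 bp and median fold enrichments of 9.45, 9.45, 9.76 and 9.25 in the same order. The 4 lists placed the summit of a shared intronic region close together, with a median distance of 59 bp between the outermost summits, and in 42.5% of regions within 50 bp. The median distance from the summit to the nearest annotated transcription start was 9940 bp, and 236 regions (6.94%) were over 50 kb away. Base composition set them apart from promoters: median GC was 51.2% within 100 bp of the summit against 64.7% at shared promoters, and the median number of CpG dinucleotides was 3 against 16.5. Shared intergenic regions had the same median GC of 51.2% and the same median of 3 CpG.

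Position within the gene was uneven. No intron number was given to 103 regions, which lay in no single protein-coding transcript. Of 3297 regions inside a protein-coding transcript, 1164 (35.3%, 95% Wilson interval 33.7 to 37.0) lay in intron 1, which holds 26.7% of the bases that could hold such a region. Intron 1 had 0.611 regions per 100 kb of such bases, intron 2 had 0.534, intron 3 had 0.437 and later introns had 0.355. Most regions stood alone: 74.3% had no other shared intronic region within 10000 bp, and 220 (6.47%) were in runs of 3 or more. The run with most regions filled *Tspan14*, with 7 in 41.7 kb, and shorter stretches held 5 regions in 16.8 kb of *Pik3ap1*, 5 in 22.3 kb of *Smad3*, 5 in 34.7 kb of *Ccnd3* and 4 in 3.23 kb of *Prkca*.

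Most genes that held a region held only 1. Of 18813 protein-coding genes on these autosomes, 2045 (10.9%) held at least 1 and 1319 held exactly 1. The 86 genes with at least 5 held 570 regions, or 16.8% of all. Long genes held them more often: 1.17% of genes with under 10 kb of bases that could hold a region had at least 1, and 47.6% of those with 200 to 400 kb did. Per 100 kb of such bases the density was highest, at 0.680, in genes with 50 to 100 kb and lowest, at 0.180, in genes with 400 kb or more.

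Counting by gene model put 2 very long models first. *Gm20388* held 41 regions, but this read-through model on chromosome 8 spans 71 other protein-coding genes, and 16 of its regions also lie in other gene bodies. *Fgfr2*, a receptor for fibroblast growth factors, held 25, of which 15 also lie in other gene bodies; the GENCODE model spans 29 other genes, and the RefSeq body of *Fgfr2* on the same build holds 0. The *Fgfr2* promoter had no region with a peak in every list. *Gm20696* overlaps *Foxp1*, and 9 of its 11 regions lie in another gene body. The order among genes is therefore given below without these 3 models.

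*Prkce* then led with 13 regions, and *Prkca* had 11. They encode protein kinases C epsilon and alpha, which respond to diacylglycerol, the lipid that phospholipase C makes below antigen and growth factor receptors. *Rere*, which encodes an atrophin family corepressor, had 11, as did *Foxp1*, a forkhead factor needed for the step from pro-B to pre-B cell. *Wwox*, a very long gene for a WW domain oxidoreductase, had 10. *Cradd* (an adaptor with a death domain), *Camk2d* (calcium/calmodulin kinase II delta), *Rbms1* (a nucleic acid binding protein) and *Msi2* (an RNA-binding protein known in blood stem cells and leukaemia) had 9 each. *Mtss1* (a protein that bends membranes and binds actin), *Mgat5* (a branching enzyme of N-glycans) and *Itpr2* (a receptor for inositol trisphosphate) had 8 each. The RefSeq bodies of these 12 genes held the same numbers. With only the best 20000 peaks of each list the counts fell to 8 in *Prkce*, 6 in *Prkca*, 5 in *Rere* and *Cradd*, 3 in *Foxp1*, 2 in *Msi2* and *Itpr2* and 1 in *Mgat5*, so the order below *Prkce* and *Prkca* depends on how many peaks are kept.

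**Figure D1:**
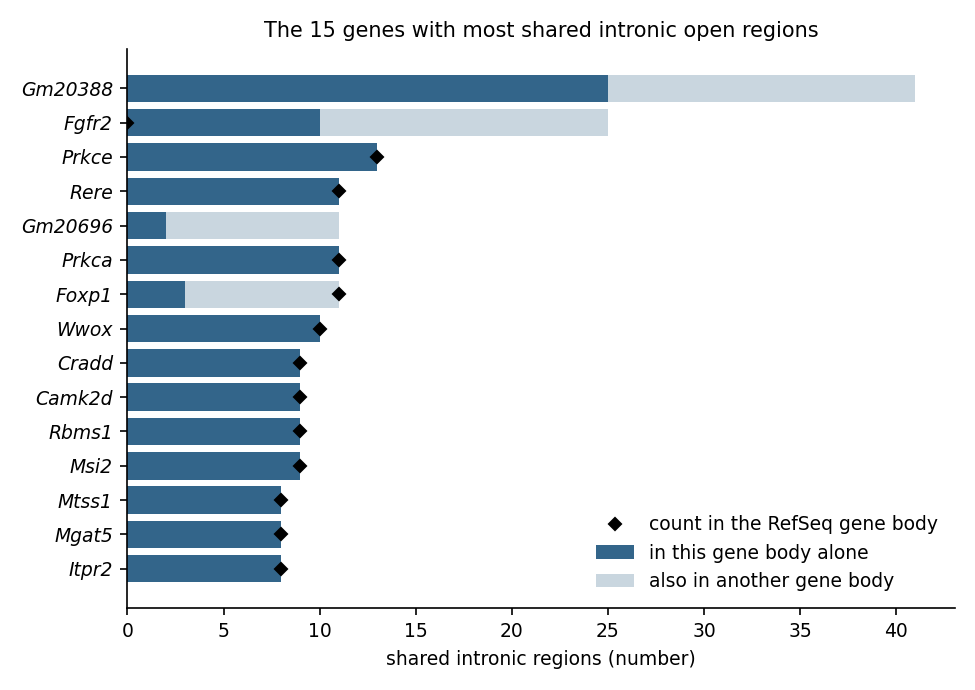
Shared intronic regions (x axis, number) in each of the 15 gene models with most of them (y axis). Dark bars count regions in that gene body alone, pale bars those also inside another gene body, and diamonds the count in the RefSeq body of the gene, which is 0 for *Fgfr2* and absent for *Gm20388* and *Gm20696*; *Prkce*, with 13, leads the genes whose count is the same in both annotations.

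Per length, the order was different. Requiring at least 5 regions gives shorter genes a higher lowest possible density. Among genes with at least 5 regions, *Tspan14* had 12.6 per 100 kb of the bases that could hold one, with 7 regions; it encodes a tetraspanin that partners the protease ADAM10. *Heg1*, a transmembrane mucin-like protein, had 8.77. *Ccnd3*, which encodes cyclin D3, had 8.43, with 7 regions in 83.1 kb. *Lhpp* had 8.17, and all 7 of its regions also lie in the long *Fgfr2* model. *Mtss1* had 6.94, *Ptger3*, a prostaglandin E2 receptor, 6.82 and *Cradd* 6.52. *B3gnt2* (7.06) and *Litaf* (6.29) depended on the annotation, since their RefSeq bodies held 0 of 6 and 2 of 5 regions. The density over all genes was 0.476 per 100 kb.

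The 13 regions of *Prkce* differed widely in height. Prkce 1 had a fold enrichment of 14.0 and 13.9 in the WT lists and 13.9 and 11.2 in the K43M lists, and its lowest percentile was 91.6. Prkce 6 had 3.70, 6.75, 6.49 and 5.88 in the same order, and its lowest percentile, 0.480, came close to the bottom of a list. At Prkce 1 the lower WT value and the higher K43M value were equal as rounded, and at Prkce 6 the genotypes overlapped. Among the regions of *Prkca*, Prkca 1 had 11.6, 9.84, 14.2 and 11.6, while Prkca 9, in the run of 4, had 3.16, 4.35, 3.02 and 3.40. The regions of *Rere* reached 11.7, 13.6, 12.1 and 10.7 at Rere 8, in the same order of lists. In *Foxp1* the strongest was Gm20696 8, with 13.6, 12.2, 9.2 and 12.3. The weakest, Gm20696 4, had 3, 4.29, 3.89 and 4.12, so that a single gene held regions from percentile 0.203 to 60.4.

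In *Tspan14* the fold enrichments of the 7 regions lay between 3.43, at Tspan14 7 in WT unnumbered, and 9.74, at Tspan14 2 in WT replicate 2. The strongest by rank, Tspan14 6, had 7.81, 7.78, 8.20 and 7.16, with pileups of 76, 77, 104 and 60 read ends. In *Ccnd3* the tallest region was Ccnd3 5, with 14.0, 15.2, 13.7 and 15.9. Ccnd3 4 had 10.2 and 12.6 in the WT lists and 6.33 and 6.46 in the K43M lists, groups that did not overlap, but it did not pass the test between genotypes given below. *Cdk6* held 3 regions. Cdk6 1 had 7.57, 9.18, 9.23 and 6.67, Cdk6 2 had 6.03, 10.7, 8.25 and 9.67, and Cdk6 3 had 6.46, 8.68, 8.86 and 8.99. At Cdk6 1 and 2 the genotypes overlapped, and at Cdk6 3 both K43M values were above both WT values, by less than the WT lines differed from each other.

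**Figure D2:**
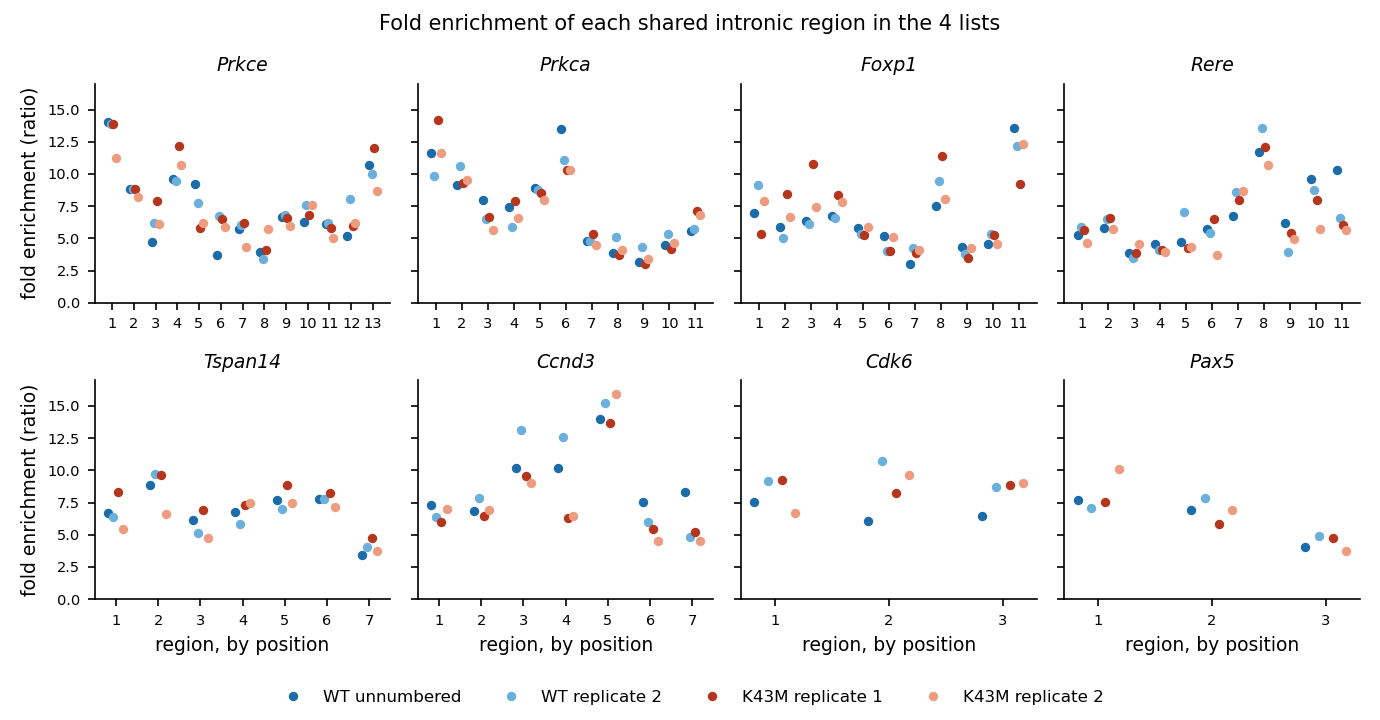
Fold enrichment (y axis, ratio) of each shared intronic region, in order along the chromosome (x axis), in 8 genes; each point is 1 list, blue for WT and red for K43M. Ccnd3 5 and Prkce 1 stand above the other regions of their genes in all 4 lists, and at most regions the colours mix.

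The regions of B-cell genes were described through lists of genes. The list of B-lineage transcription factors held a shared intronic region in 21 of 31 genes (67.7%), with 52 regions or 1.33 per 100 kb. Over all protein-coding genes these values were 10.9% and 0.476 per 100 kb. The list's genes are longer, with a median of 84.2 kb that could hold a region against 10.2 kb for all genes. Among all genes with 50 to 100 kb of such bases, 28.8% held one. *Foxp1* had 11, *Ets1* (an ETS factor), *Erg* (another) and *Bach2* (a repressor that guards the pre-B-cell checkpoint) had 5 each, and *Pax5*, *Ikzf1* (Ikaros) and *Runx1* had 3 each. *Ebf1*, the factor that starts the B-lineage programme together with E2A, had 2 in 374 kb, and *Tcf3*, which encodes E2A, had 1 in 14.1 kb. The 10 genes without one included *Foxo1*, *Bcl11a*, *Myb* and *Irf8*.

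At *Pax5*, the guardian of B-cell identity, Pax5 1 in intron 6 had a fold enrichment of 7.67 and 7.10 in the WT lists and 7.57 and 10.1 in the K43M lists. Pax5 2 in intron 5 had 6.90, 7.86, 5.81 and 6.93, and the smaller Pax5 3 in the same intron had 4.04, 4.89, 4.75 and 3.70. At *Ikzf1*, Ikzf1 2 had 6.90, 8.46, 6.02 and 5.34. At *Ebf1*, Ebf1 1 had 10.7, 7.33, 6.55 and 7.69. In Pax5 1 to 3 the genotypes overlapped, while at Ikzf1 2 both WT lists were above both K43M lists without passing the test below. *Ikzf1* was 1 of 3 hosts in this list, with *Erg* and *Arid5b*, whose start windows held no region with a peak in every list.

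Genes of pre-B-cell receptor and kinase signalling held one in 21 of 33 (63.6%), with 57 regions or 1.72 per 100 kb. *Pik3ap1* (BCAP, which links the receptor complex to phosphoinositide 3-kinase) had 6, *Plcg2* (the phospholipase that makes diacylglycerol) had 5, and *Inpp5d* (the lipid phosphatase SHIP1), *Fyn* (a Src family kinase) and *Bcr* had 4 each. Plcg2 1 reached 7.53, 9.36, 7.65 and 6.92 in list order. *Bcr* and *Abl1* are the partners of the fusion oncogene in human leukaemia. In mouse *Bcr*, Bcr 3 had 13.7, 12.6, 15.1 and 11.0, while the only region of *Abl1* had 4.57, 6.77, 5.13 and 3.60. All 21 hosts in this list had an open start window in every list. *Cd79a*, *Cd79b* and *Cd22*, with 1.90 to 4.64 kb of bases that could hold a region, had none. Longer genes of the list without one were *Pik3cd* (36.8 kb), *Blk* (39.5 kb) and *Vav3* (333 kb), and *Vav3* had 12 intronic regions with a peak in at least 1 list.

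Cytokine receptor and JAK-STAT genes held one in 8 of 23 (34.8%), with 16 regions or 2.18 per 100 kb. *Flt3*, the receptor of lymphoid progenitors, had 4 and *Il2ra* (CD25, a marker of pre-B cells) had 3, while *Il7r*, the interleukin 7 receptor gene, had none. Cell cycle and survival genes held one in 8 of 23, with 21 regions or 2.71 per 100 kb, the highest density of the lists. These were *Ccnd3* with 7, the survival gene *Bcl2* with 4, *Bcl2l1* (BCL-XL) and *Cdk6* with 3 each, and *Ccnd2*, *Cdkn2a*, *Bcl2l11* and *Rb1* with 1 each. Bcl2l1 1 was even across lists, with 7.28, 6.69, 7.78 and 7.42. Chromatin and cofactor genes held one in 9 of 23 (39.1%), with 32 regions, led by *Rere* with 11 and *Arid1b*, a subunit of the SWI/SNF remodelling complex, with 7.

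Genes of other cell types served for comparison. T-cell and NK-cell genes held one in 3 of 18 (16.7%), *Tox* and *Cd247* among them, and 0 of 10 myeloid genes held one. Myeloid genes are short, with a median of 4.07 kb that could hold a region against 84.2 kb for B-lineage factors, so the shares of genes are not on the same footing. Very long neuronal genes held one in 10 of 18 (55.6%), but only 0.0880 per 100 kb. One of these was tall: Dlg2 2, in a gene for a postsynaptic scaffold, had 13.9, 16.7, 18.8 and 16.8 in the 4 lists.

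**Figure D3:**
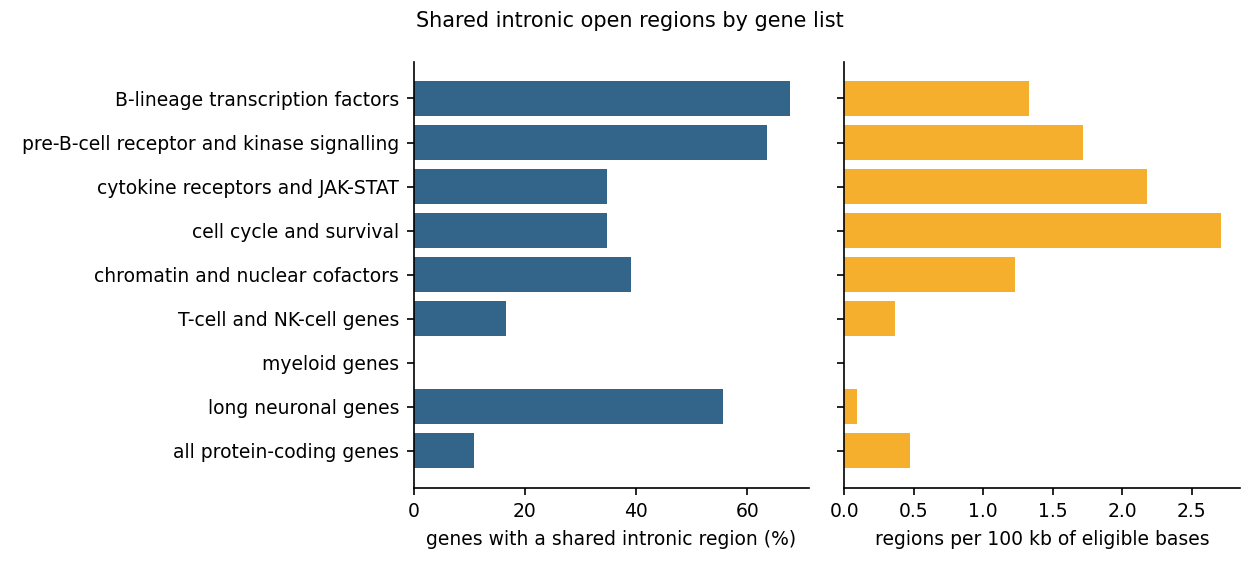
Share of genes with at least 1 shared intronic region (left, percent) and regions per 100 kb of bases that could hold one (right) for each gene list (y axis) and for all protein-coding genes. B-lineage factors stand highest on the left with 67.7%, cell cycle and survival genes on the right with 2.71, and long neuronal genes are high on the left and lowest but for myeloid genes on the right.

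The promoters of the host genes were looked at next. Of the 2045 hosts, 66.5% (interval 64.4 to 68.5) had a region with a peak in every list in a start window, against 46.3% (45.6 to 47.1) of the 16768 genes without one. The gap differed with length. With 0 to 10 kb of bases that could hold a region, 53.2% (43.9 to 62.3) of 109 hosts and 40.9% (39.9 to 41.9) of the other genes had an open start window. With 10 to 50 kb, the size with most hosts, it was 67.5% (64.0 to 70.8) of 726 hosts and 57.1% (55.8 to 58.4) of the others. Among long genes, with 200 to 400 kb of bases that could hold a region, 62.1% (55.3 to 68.5) of 206 hosts and 17.2% (12.8 to 22.6) of 227 other genes had an open start window. These intervals cover counting error over genes, which are not replicates.

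The strongest regions, ranked by their lowest percentile over the lists, lay mostly outside the known B-cell genes. St6galnac5 3, in a sialyltransferase gene, led with a lowest percentile of 97.0 and fold enrichments of 10.9, 10.8, 10.2 and 10.6 in list order. Col6a6 2 (a collagen gene) had 10.7, 10.8, 11.6 and 10.3, and Sorcs2 1 (a sorting receptor gene) had 12.9, 12.9, 14.4 and 12.8. The others of the top 10 were Hs3st1 1, Nfia 2, Ptdss2 1, Ninj2 1, Rfx4 2, Itpkb 2 and Bst1 1, with lowest percentiles of 93.9 to 95.2. Of these, Ptdss2 1 lies only 783 bp from the nearest transcription start and was given no intron number. *Itpkb* encodes an inositol trisphosphate kinase with a role in B-cell development, and *Bst1* a surface enzyme (BP-3) of B-cell precursors. *St6galnac5*, *Col6a6*, *Ninj2* and *Rfx4* had no open start window in every list, so these regions lie in genes whose own promoter was not called open throughout.

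Motifs known for B-lineage factors were common at the summits. Within 100 bp of the summit, an E-box was found in 38.8% of the 3400 regions (95% Wilson interval 37.2 to 40.4), against 23.0% (22.1 to 24.1) of 6798 windows 1000 bp away and 29.7% of all 18177 regions with a peak in every list. A PU.1-type ETS motif was in 16.1% (14.9 to 17.4) against 2.63% of windows 1000 bp away and 12.2% of all regions. RUNX was in 15.9% against 5.02% and 8.93%, EBF in 14.6% against 2.57% and 10.6%, and ETS in 10.7% against 2.93% and 11.8%. At least 1 of these 5 motifs was in 68.5% (66.9 to 70.0) of the regions and 32.9% (31.8 to 34.0) of the windows 1000 bp away, and at least 2 different ones were in 24.1% and 3.16%. The capitals in the sequences above show such matches. A match is a string of letters and not a measured binding site. The windows 1000 bp away, here and below, were not matched for base composition, and its part in the differences was not tested.

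Other motifs set the intronic regions apart from promoters. SP1 (GGGGCGGGG) was in 1.29% of shared intronic regions and 19.1% of shared promoters, and NFY (CCAAT, any base, A) in 5.85% and 16.2%. RUNX went the other way, with 15.9% and 3.56%, as did AP-1 (TGA, any base, TCA), with 10.5% and 3.30%. Against shared intergenic regions the shares were closer: E-box 38.8% and 36.6%, RUNX 15.9% and 14.1%, EBF 14.6% and 13.2%, with overlapping intervals. CTCF, the insulator protein, was matched by its consensus in 4.29% (3.66 to 5.03) of intronic and 6.88% (6.12 to 7.73) of intergenic regions. ETS-IRF composites (GGAANNGAA, which can overlap the ETS letters) were in 10.9%, against 6.72% of windows 1000 bp away, while IRF (AAANNGAAA) was in 9.06% and 11.0%, the GATA factor motif (AGATAA) in 6.91% and 10.6%, STAT (TTCCNGGAA) in 1.18% and 0.382%, FOXO (TGTTTAC) in 3.97% and 2.63%, MEF2 (TAAAAATAG) in 0.824% and 0.412% and NRF-1 (CGCATGCG) in 0.265% and 0.0736%.

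The regions were also split by their lowest percentile into 4 sets of 850. In the strongest set, 19.9% (17.3 to 22.7) carried a PU.1-type ETS motif and 18.5% (16.0 to 21.2) an EBF motif, against 13.2% (11.1 to 15.6) and 13.3% (11.2 to 15.7) in the weakest. RUNX was in 19.2% (16.7 to 22.0) of the strongest and 13.1% (11.0 to 15.5) of the weakest set. CTCF was in 0.706% (0.324 to 1.53) of the strongest and 6.59% (5.11 to 8.46) of the weakest. An E-box was in 32.4% (29.4 to 35.6) of the 860 regions with an ETS or PU.1-type ETS motif and in 40.9% (39.0 to 42.9) of the 2540 without either.

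**Figure D4:**
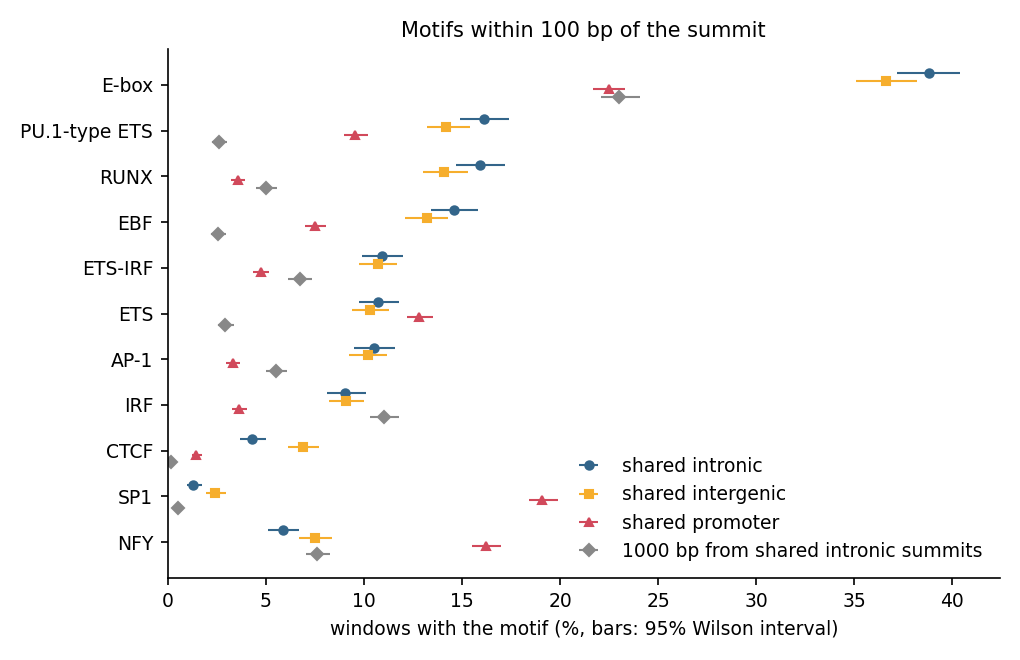
Share of windows with each motif within 100 bp of the summit (x axis, percent, bars are 95% Wilson intervals) in shared intronic, intergenic and promoter regions and in sequence 1000 bp from the intronic summits. Intronic and intergenic points lie close together, E-box is highest at 38.8% of intronic regions, and SP1 and NFY are high at promoters.

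The genotypes were compared by the height of the peaks, which the rule did not use beyond requiring a peak in every list; regions lost in 1 genotype are therefore not among them. A limma model of log2 fold enrichment, centred in each list and fitted over all 18177 regions with a peak in every list, found 12 shared intronic regions higher and 7 lower in K43M at a Benjamini-Hochberg adjusted p under 0.05. Over all regions tested, 30 (0.165%) were higher and 17 (0.0935%) lower; among the 3400 intronic regions the called share was 0.559% in both directions together. An unadjusted p under 0.05 was reached by 619 intronic regions (18.2%), against 12.3% of all regions. It was reached by 16.5% of shared intergenic and 8.14% of shared promoter regions, of which 0.291% and 0.124% were called. The median log2 difference, K43M minus WT, was -0.01 over the intronic regions, and 90% of them lay between -0.50 and 0.55. The median absolute log2 difference between 2 lists was 0.20 and 0.21 within the genotypes and 0.24 to 0.26 between them. With 2 lines per genotype, these p-values rest on the spread between single lines, drawn by limma toward a trend over all 18177 regions. At shared promoters the median absolute log2 difference within the genotypes was smaller, 0.13 for WT and 0.15 for K43M. With only intronic regions in the limma fit, 510 of them had an unadjusted p under 0.05. WT unnumbered stems from earlier data than the other lists, and the part of this in the differences was not tested.

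The calls depended on the fit. No intronic region passed when values were not centred, when limma was run without a variance trend, or without K43M replicate 1 or K43M replicate 2, although 446 to 656 then had an unadjusted p under 0.05, and 87 and 113 passed without WT unnumbered and without WT replicate 2. All 19 regions kept their direction in these fits, which reuse values that had chosen them, so this is no separate check. Their values are therefore given first and the p-values second.

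The largest rise was at Slc39a11 2, in a zinc transporter gene, where fold enrichment was 5.64 and 4.22 in the WT lists and 14.3 and 9.80 in the K43M lists (log2 difference 1.28 ± 0.22 SE, adjusted p 0.0374). Tshz2 1, in a zinc finger factor gene, had 4.34 and 5.75 in WT and 11.0 and 13.1 in K43M (1.26 ± 0.21, adjusted p 0.0332). Msra 2, in the gene of a methionine sulfoxide reductase, had 4.34 and 5.62 against 12.1 and 10.3 (1.17 ± 0.20, adjusted p 0.0374). In each of these 3 regions the smaller WT value was near the lower end of its list, with lowest percentiles of 2.84 to 2.94. Utrn 1 (utrophin) had 5.20 and 4.22 against 9.84 and 10.7, and Wbp1l 1, in a membrane adaptor gene, 6.20 and 4.63 against 12.5 and 10.5. The lowest percentiles of Utrn 1 and Wbp1l 1 were 2.94 and 6.16. At the other 7, in *Tbxas1*, *Taok3*, *Galnt10*, *Abcb4*, *Tmem200a*, *Cux1* and *Ppard*, the log2 difference was 0.83 to 1.07. *Cux1* encodes a homeodomain factor and *Ppard* a nuclear receptor of fatty acids.

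The largest fall was at Nsg2 1, in a gene of neuronal vesicles, with 13.6 and 10.7 in the WT lists and 4.76 and 4.07 in the K43M lists (log2 difference -1.46 ± 0.20 SE, adjusted p 0.0225). Its lowest percentile over the lists was 1.35, close to the bottom of a list. Bmf 1 lies in the gene of a BH3-only protein that promotes apoptosis and had 12.4 and 8.86 against 4.28 and 4.70 (-1.23 ± 0.22, adjusted p 0.0446). Mrc1 2, in the mannose receptor gene of macrophages, had 12.4 and 15.1 against 6.66 and 5.45 (-1.19 ± 0.17, adjusted p 0.0225). Beside it, the myeloid markers had a promoter peak at 1 of 6 genes in each WT list (*Lyz2*, fold enrichments 7.50 and 7.09) and at 0 of 6 in each K43M list, with *Csf1r*, *Itgam*, *Mpo*, *Elane* and *Csf3r* lacking one in all 4; their part in the result was not tested. Cdh17 2, in a cadherin gene, had 17.2 and 13.6 against 8.08 and 6.61.

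Fry 1 had fold enrichments of 12 and 11.0 in WT against 6.64 and 5.23 in K43M, but its summit pileups were 54 and 39 against 75 and 45 read ends. On the pileup scale its log2 difference was 0.40 ± 0.19, in the other direction, with an adjusted p of 0.275 in limma. At Slc44a3 1 and Filip1l 4 the log2 difference was -0.89 and -0.84. At none of the 19 regions did the WT and K43M fold enrichments overlap, and the choice of regions by this test makes that separation a description.

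**Figure D5:**
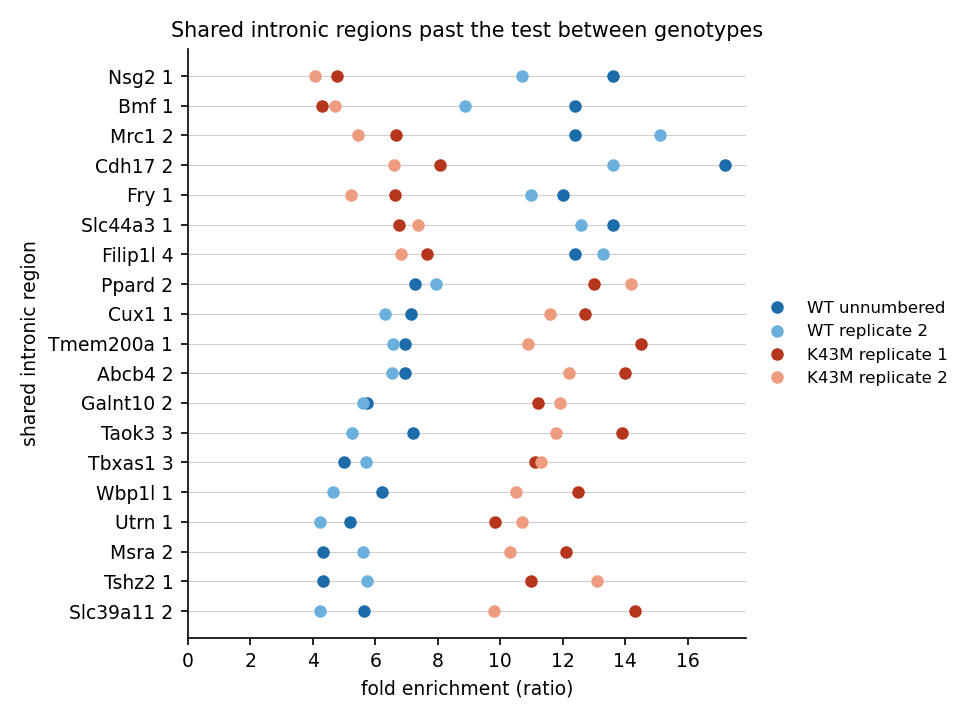
Fold enrichment (x axis, ratio) of the 19 shared intronic regions past the limma test, each point 1 list, blue for WT and red for K43M. The 7 regions at the top are lower and the 12 below are higher in K43M, and the colours do not overlap in any of them.

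None of the 19 lay in a gene of the B-lineage, signalling, cytokine, cell cycle or chromatin lists. These lists hold 16 to 57 regions each, too few for a count of 0 to set them apart from the called share of 0.559% over all shared intronic regions. Over the 52 regions of B-lineage transcription factors the median log2 difference was -0.06, and 18 were above 0; over the 57 of the signalling genes it was -0.08 with 21 above 0, and over the 21 of cell cycle and survival genes -0.09 with 7 above 0. Over the 32 of chromatin and cofactor genes it was -0.13 with 12 above 0, over the 4 of T-cell and NK-cell genes -0.12 with 0 above 0, and over the 16 of cytokine receptor and JAK-STAT genes and the 22 of long neuronal genes 0.03 each, with 10 and 12 above 0. The median over all shared regions was -0.00, with 9046 of 18177 above 0. At Ccnd3 4, Ikzf1 2 and the 3 regions of *Cdk6* the test was not passed, which with 2 lines per genotype does not show that they were equal.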

How the data were processed

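ATAC-seq libraries of 4 mouse lines were compared through their peak lists. Per the labels and the study's methods, the authors trimmed reads with Trimmomatic 0.36, mapped them with BWA 0.7.15 to mm10, filtered them with SAMtools 1.3.1 and called peaks with MACS2 2.1.0; no control and no pooling are named. The deposited fold enrichment is the authors' ratio of summit signal to local background of the same library, and the deposited −log10 p and −log10 q are the authors' Poisson values within a list. They are not normalized between libraries. Blacklisting and duplicate handling act on which regions can be called at all.

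Here peaks overlapping by 1 bp were merged and classed with GENCODE release 21 (GRCm38), a later release than the authors used, and sequence was read from RefSeq's GRCm38 genome. A region's fold enrichment in a list was the largest among that list's peaks in it. Its percentile, summit and pileup came from the list's peak with the highest −log10 q, which can be another peak. The summit pileup was recovered from fold enrichment and −log10 p, for 100% of peaks in each list. Base counts per gene leave out exons and start windows. Of the 4 lists, 3 carry a genotype in their labels, and the other was grouped by the series' design text. Replicate numbers do not pair lines. Heights were compared with limma 3.58.1 (R 4.3.3), with trend. Shares carry 95% Wilson intervals, which cover counting error only.

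Named genes were the 15 with most regions, the 10 densest with at least 5, members of the lists, the 5 largest called differences in each direction, the 10 strongest regions and the 5 runs of neighbouring regions with most members; Ccnd3 4 and Dlg2 2 were picked once their values were known. A few genes that this rule or the lists name are not reported here. The regions, lists and tests were chosen with earlier results of these data known. On simulated data, all 4000 regions got the right lists and class. In a simulated fit of 18177 regions, limma recovered 11 of 100 log2 changes of 1 and 76 of 100 of 2. It made 0 false calls among the unchanged regions. The simulated noise was independent between lists and held no batch difference, so it does not give the error rate of the real calls. Calculations used Python 3.11.15, pandas 2.3.3, pysam 0.24.0 and samtools 1.23.1. Alternatives changed the lists used, the threshold, the overlap, the start window, the exons, the summit and the scaling.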

Additional observations from a re-analysis of the deposited data

How the results depend on the processing

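The number of shared intronic regions went from 3400 to 1492 with the best 20000 peaks of each list, and those in the 15 leading gene models fell to 84, with 1 to 18 in each; the other alternatives, including leaving out each list, gave 2426 to 4047 regions. Within 50 bp of the summit the motif shares were 23.6% for E-box, 11.4% for PU.1-type ETS, 10.4% for RUNX, 10.4% for EBF and 6.94% for ETS, in a shorter window; a threshold of 5 on −log10 q, another summit or leaving out a list kept them within the intervals given. The 19 calls between genotypes became 0 without centring, 4 with quantile normalization, 206 on the recovered pileup, 0 without a variance trend, 33 with only intronic regions fitted, 87 without WT unnumbered and 0 to 113 without each labelled library, where the lone line of a genotype is assumed to vary like the others; the cause was not tested. Of the 19, 17 were still called on the pileup, and Fry 1 turned to 0.40 there. No paired analysis was possible because replicate numbers do not pair lines. Gene bodies from RefSeq, an alternative chosen after seeing the data, gave 0 regions for *Fgfr2*. Pileups of 22 to 27 read ends limit how small a difference can be seen.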
